A study of Homo sapiens with 6 samples.

Results

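Zinc finger genes whose name is ZNF followed by digits only were assigned 39 of the 3126 β-catenin peaks listed in SA121 human embryonic stem cells. They were chosen by name, at any distance from the peak, with earlier results of these data known. They make up 25 of the 1840 genes named in the 3 peak lists. The lists come from chromatin immunoprecipitation and sequencing (ChIP-seq) of cells kept for 6 h in RPMI medium under 3 conditions. One condition had no inhibitor (RPMI), another had CHIR99021 (CHIR), which inhibits GSK3, a kinase that targets β-catenin for breakdown. The other had CHIR99021 with SB431542 (CHIR+SB), an inhibitor of activin, Nodal and TGFβ receptor kinases. Each condition had 1 β-catenin library and 1 library with control goat IgG, and DNA from parallel precipitations was pooled before each library was made. No spread between replicates can therefore be given, and no test between conditions was made. All cells are of 1 line.

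Most genes with this name encode proteins with tandem C2H2 zinc fingers, loops held by a zinc ion that read DNA. Many carry a KRAB domain, which recruits the co-repressor TRIM28 and silences transposable elements. KRAB zinc finger genes arose by repeated duplication and stand in clusters, the largest of them on chromosome 19. β-catenin does not bind DNA itself and is brought to it by partners, above all the TCF/LEF factors of the Wnt pathway. The name is not a single functional class: ZNF423 is a cofactor of SMAD proteins, ZNF451 a SUMO ligase and ZNF346 a binder of double-stranded RNA.

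The RPMI list sums to 6272 β-catenin reads, the CHIR list to 39408 and the CHIR+SB list to 39022. These sums are over 260, 1053 and 1813 peaks, and total read numbers of the libraries are unknown here. The normalized signal is the read count multiplied by 1 factor per library. By these factors the β-catenin library was 1.67 times as deep in CHIR as in RPMI, and 1.14 times in CHIR+SB. The weakest listed peak of any gene held 15 reads (signal 9.61) for RPMI, 20 (7.68) for CHIR and 12 (6.75) for CHIR+SB. How reads that align to several related genes were treated is not given, so reads of near-identical zinc finger genes may be lost or shared between them.

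The share of ZNF genes with a peak was near that of protein-coding genes in RPMI and CHIR, and below it in CHIR+SB. In RPMI 5 of 476 such protein-coding genes had one, 1.05% (exact 95% binomial interval 0.342 to 2.43%), against 1.13% of 20056 protein-coding genes. In CHIR it was 16 genes, 3.36% (1.93 to 5.40%), against 3.80%, and in CHIR+SB 18 genes, 3.78% (2.26 to 5.91%), against 6.25%. No ZNF gene had a second peak within a list. Counting only promoter peaks, those centred at most 1000 bp from the transcription start site (TSS), the shares were 0.840%, 1.89% and 1.47%, against 0.663%, 1.26% and 1.15% of protein-coding genes. These intervals cover counting error only, and the differences from the background were not tested. Over the 3 lists together, 7 of the 240 ZNF genes on chromosome 19 had a peak (2.92%, 1.18 to 5.92%), all at promoters, and 18 of 236 elsewhere (7.63%, 4.58 to 11.8%), 3 of them with one at a promoter. Over all protein-coding genes of any chromosome these shares were 7.61% at any distance and 1.67% at promoters. At any distance the share elsewhere was thus near this background, and that of chromosome 19 below it. At promoters the chromosome 19 share of 2.92% was above 1.67%, which its interval includes, and the share elsewhere was 1.27%. A background of chromosome 19 genes alone was not counted.

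Related genes were counted as lists, against the same shares of protein-coding genes. Of 89 protein-coding genes named ZBTB, ZSCAN, ZKSCAN or ZFP, 0 had a peak in RPMI (exact interval 0 to 4.06%). In CHIR 5 did (ZBTB10, ZBTB17, ZFP64, ZFP91 and ZSCAN10), 5.62% against 3.80%. In CHIR+SB 6 did (ZBTB10, ZBTB14, ZBTB17, ZBTB20, ZBTB42 and ZFP64), 6.74% against 6.25%. The highest of these peaks lay within ZFP64, with a signal of 29.2 in CHIR and 23.1 in CHIR+SB. Of 15 co-repressor genes that work with KRAB zinc fingers, TRIM28 and SETDB1 among them, 0 had a peak in RPMI. One, the DNA methyltransferase gene DNMT1, had a peak in CHIR, 52.5 kb into the gene (41 reads against 3 with IgG). ATF7IP, a partner of SETDB1, had one in CHIR+SB, 86.5 kb into the gene (15 reads against 3 with IgG). In each of these lists 1 of 15 is 6.67%, and 1 gene more or fewer would move it by as much.

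The promoter peaks belong to 10 genes, and the 7 of them on chromosome 19 are all the ZNF genes of that chromosome with a peak. These are ZNF317, ZNF414, ZNF440, ZNF566, ZNF790, ZNF829 and ZNF850. The 3 others are ZNF343 on chromosome 20, ZNF346 on chromosome 5 and ZNF655 on chromosome 7. Peaks of any gene on chromosome 19 lay mostly at promoters, 19 of 26 in CHIR (73.1%) and 13 of 18 in CHIR+SB (72.2%). These counts include the ZNF peaks there, 6 in CHIR and 4 in CHIR+SB, all at promoters. ZNF566, ZNF850, ZNF790 and ZNF829, all KRAB zinc finger genes, start within 426 kb of each other.

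The sequence before the start is shown for 6 of these genes because they hold an element seen at many promoters with a β-catenin peak. It is the palindrome CTCGCGAG, the core of an element of CpG-rich promoters that the methyl-CpG-binding factor ZBTB33 (Kaiso) is known to bind, or the 7 letters TCTCGCG, which start the longer form. Capitals mark these letters on either strand, including where they overlap. Sequences run 5′ to 3′ from 110 bases before a RefSeq start to 10 bases after it.
ZNF346 (GRCh38.p14, chr5:177022586-177022705, plus strand): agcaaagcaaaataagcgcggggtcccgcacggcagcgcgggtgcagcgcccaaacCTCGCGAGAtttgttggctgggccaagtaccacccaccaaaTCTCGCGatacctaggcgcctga
ZNF850 (GRCh38.p14, chr19:36772798-36772917, minus strand): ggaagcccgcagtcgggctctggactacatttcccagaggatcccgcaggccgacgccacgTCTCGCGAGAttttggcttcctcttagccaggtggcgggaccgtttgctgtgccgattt
ZNF414 (GRCh38.p14, chr19:8514158-8514277, minus strand): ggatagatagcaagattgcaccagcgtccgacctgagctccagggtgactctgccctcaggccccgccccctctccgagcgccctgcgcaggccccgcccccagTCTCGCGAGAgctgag
ZNF343 (GRCh38.p14, chr20:2524513-2524632, minus strand): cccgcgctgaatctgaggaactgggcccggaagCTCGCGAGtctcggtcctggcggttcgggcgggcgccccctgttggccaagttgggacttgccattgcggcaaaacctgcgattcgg
ZNF317 (GRCh38.p14, chr19:9140287-9140406, plus strand): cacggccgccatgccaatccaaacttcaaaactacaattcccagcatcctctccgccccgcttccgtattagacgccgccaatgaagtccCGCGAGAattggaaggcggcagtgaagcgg
ZNF566 (GRCh38.p14, chr19:36489552-36489671, minus strand): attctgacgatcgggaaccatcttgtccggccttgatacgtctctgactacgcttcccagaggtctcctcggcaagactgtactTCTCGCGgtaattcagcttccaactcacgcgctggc

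ZNF346, ZNF850 and ZNF414 hold the whole palindrome, whose first base lies 54, 48 and 5 bases before the start. ZNF317 and ZNF566 hold the 7-letter form, 20 and 26 bases before it. In ZNF343 the palindrome, 77 bases before the start, belongs to a start 15.6 kb from its other RefSeq start. The length from start to gene end is 27.3 kb in the authors' list, 42.7 kb from the start with the palindrome and 27.1 kb from the other. By length, the authors' start for ZNF343 is thus nearer to the one whose window does not hold the palindrome. For ZNF346 these lengths are 44.0 kb in the list and 58.5 kb in RefSeq, so whether its start is the same is not known. For the 4 other genes shown they differ by less than 1 kb.

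All 10 genes with a promoter peak matched RefSeq windows by symbol, 17 windows of 300 bases (250 before a start and 50 after). The palindrome was in the windows of 4 of them, or of 3 when only the start nearest to the authors' by that length was used. Among the 394 other ZNF genes with a window, it was in 0. Among 27305 genes of any name it was in 336 (1.23%), or 358 of 35116 windows (1.02%). Among the 201 other genes with a CHIR promoter peak it was in 85 (42.3%), against 40% of the ZNF genes with a promoter peak in any list. Of the 404 ZNF genes with a window, the 4 that hold the palindrome thus all had a promoter peak, that of ZNF343 by another start. The palindrome was chosen with earlier results of these data known, so these shares are not independent support for a link. The match is by letters and not by position under the peak, since the windows are of another build than the peaks, and the overlap was not tested.

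**Figure D1:**
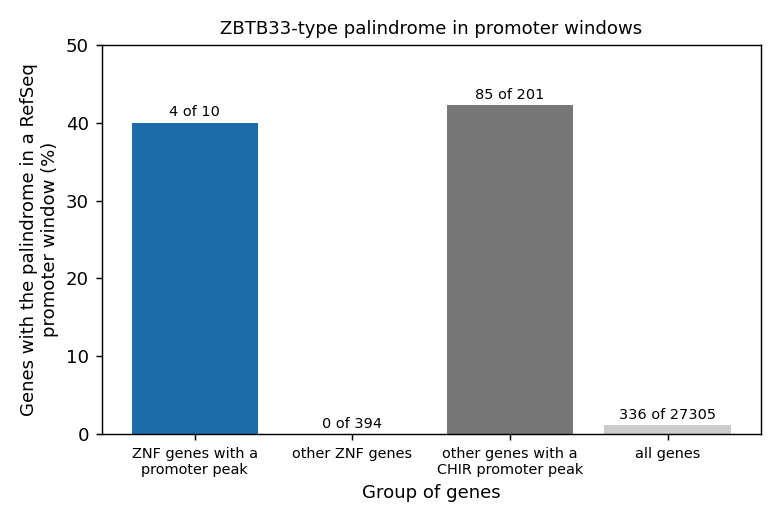
Share of genes (vertical axis, percent) with the ZBTB33-type palindrome in a RefSeq promoter window, for 4 groups of genes; numbers above the bars are counts. It was in 4 of 10 ZNF genes with a promoter peak in any list, or 3 by the start nearest to the authors'. In the other groups it was in 0 of 394 other ZNF genes, 85 of 201 other genes with a CHIR promoter peak and 336 of 27305 genes in all.

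The 7-letter form, searched after the sequences had been seen, was in windows of 5 of the 10 genes, 13 of the 394 other ZNF genes (3.30%) and 4.17% of all genes. Among the 201 other genes with a CHIR promoter peak 140 held it (69.7%). The TCF/LEF words CTTTGAT and CTTTGTT were in 0 of the 17 windows, against 7.61% of all windows and 5.60% of ZNF windows. By gene the backgrounds were 9.20% of all genes and 7.18% of ZNF genes. The ETS word CCGGAAG was in windows of 3 genes (30%: ZNF343, ZNF655 and ZNF829), against 12.2% of all genes and 42.6% of ZNF genes. By window it was 5 of 17, against 10.3% of all and 35.5% of ZNF windows. The windows of ZNF655 overlap and share ETS sites, so they are not separate cases. The NFY word CCAAT was in windows of 4 genes (40%), against 39.7% of all genes and 52.7% of ZNF genes. By window it was 23.5%, against 34.6% of all and 44.6% of ZNF windows. The SP/KLF word GGGCGG was in windows of 7 genes (70%), against 48.3% of all genes and 68.8% of ZNF genes. By window it was 58.8%, against 45.0% of all and 62.5% of ZNF windows. The NRF1 word GCATGCGC and the YY1 word AAGATGGC were in 0 of the 17 windows, against 3.05% and 2.89% of all and 4.44% and 4.05% of ZNF windows. All words were searched on both strands, and TCTCGCG overlaps the palindrome in ZNF346, ZNF414 and ZNF850. Median GC content was 61.7% in these windows, 61.3% in all ZNF windows and 58.7% in all windows.

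ZNF655, which encodes a Krüppel-like protein known to bind VAV1, had the highest promoter signal of the ZNF genes in each list. It had 25 reads and 5 IgG reads in RPMI, 54 and 6 in CHIR, and 37 and 15 in CHIR+SB. The normalized signals were 16.0, 20.7 and 20.8, so the value was lowest in RPMI and alike in the inhibitor libraries. Its peak (chr7:99155883-99156455 in the CHIR list, hg19) was 391 bp wide in RPMI, 572 bp in CHIR and 127 bp in CHIR+SB. In CHIR+SB the reads were thus counted over a much narrower stretch, which lay 10 to 137 bp into the gene.

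ZNF317, a KRAB zinc finger gene, had read counts of 20 (RPMI), 23 (CHIR) and 23 (CHIR+SB), with 6, 4 and 12 IgG reads. Its signals were 12.8, 8.83 and 12.9, and the CHIR value was the lowest. The CHIR peak (chr19:9250858-9251097) ran from 197 bp before the TSS to 42 bp after it. ZNF566 had 18, 30 and 24 reads with 5, 6 and 14 IgG reads, and signals of 11.5, 11.5 and 13.5 (chr19:36980234-36980586 in CHIR). ZNF566 starts opposite the antisense gene ZNF566-AS1, within 1 kb in RefSeq, so its peak cannot be given to one of the pair.

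ZNF414 had a promoter peak in RPMI (19 reads, 5 IgG reads, signal 12.2) and CHIR (30 reads, 4 IgG reads, signal 11.5), and none in CHIR+SB. It was the only ZNF gene with a peak in RPMI and none in CHIR+SB. At the CHIR signal the CHIR+SB library would hold 20.5 reads there, above the 12 reads of that list's lowest peak. The nearest CHIR+SB peak lay 193 kb away, at RPS28.

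Of the promoter peaks found only with inhibitor, that of ZNF346 had the highest signal. It had 45 reads and 5 IgG reads in CHIR and 36 and 14 in CHIR+SB, signals of 17.3 and 20.3 (chr5:176449386-176449902 in CHIR). At the CHIR signal the RPMI library would hold 27.0 reads, above the 15 of its lowest peak. ZNF343, a KRAB zinc finger gene, had 39 reads in CHIR and 18 in CHIR+SB, signals of 15.0 and 10.1. Its peaks were centred 782.5 and 814.5 bp upstream, the farthest from the TSS among the ZNF promoter peaks and nearest to the promoter limit. ZNF829 had 23 and 15 reads, signals of 8.83 and 8.44. The signal of ZNF829 is below the lowest of the RPMI list, so its lack of a peak in RPMI shows nothing at this depth.

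ZNF850 and ZNF790 had a promoter peak in CHIR only, with 40 and 28 reads and signals of 15.4 and 10.8. ZNF440 had one in CHIR+SB only, with 15 reads and 4 IgG reads, centred 204.5 bp upstream. Just outside the 1000 bp limit, the nearest peak was that of ZNF391 in CHIR+SB, at 1.43 kb. ZNF790 starts opposite ZNF345, ZNF829 opposite ZNF568 and ZNF850 opposite LOC728485, each within 1 kb in RefSeq, so these peaks may belong to either gene of a pair.

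Most promoter peaks of ZNF genes covered the start site. In RPMI 4 of 4 covered the TSS, in CHIR 8 of 9 (88.9%) and in CHIR+SB 4 of 7 (57.1%), against 80.4%, 65.4% and 60.7% of all promoter peaks. Those that did not cover it were ZNF343 in both inhibitor lists, and ZNF440 and ZNF655 in CHIR+SB. The centre nearest to a TSS was that of ZNF566 in RPMI, 3.5 bp into the gene.

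**Figure D2:**
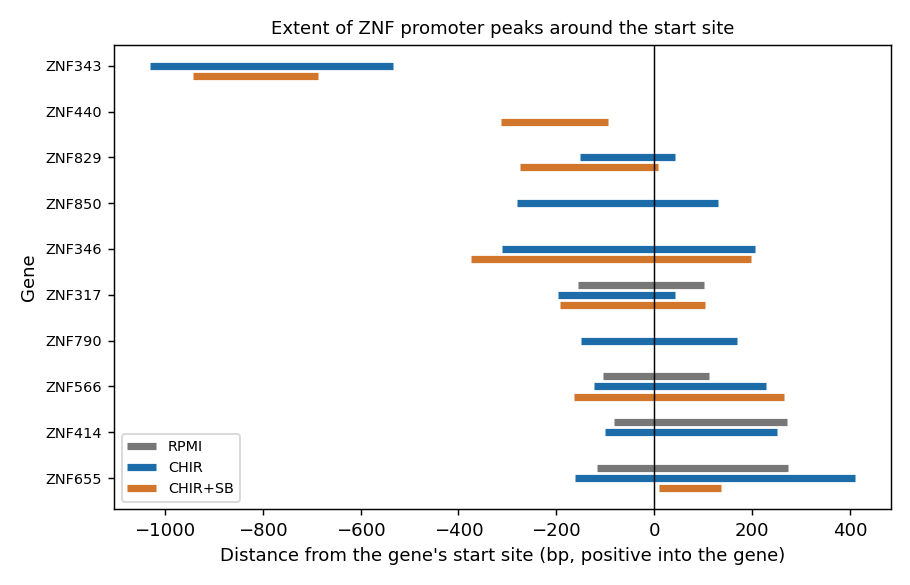
Extent of each ZNF promoter peak relative to the start site (horizontal axis, bp, positive into the gene), with 1 bar per peak coloured by condition and genes on the vertical axis. Bars cross the start site except at ZNF343, at ZNF440 and, in CHIR+SB, at ZNF655, where the bar is 127 bp long.

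The 3 highest ZNF peaks in CHIR lay away from promoters. The highest was at ZNF436, a KRAB zinc finger gene on chromosome 1, with 87 reads and 7 IgG reads in CHIR and 45 and 12 in CHIR+SB. Its signals were 33.4 and 25.3, and it ranked 25 of 1053 peaks in CHIR and 81 of 1813 in CHIR+SB. The peak (chr1:23683830-23684522 in CHIR, hg19) lay 10.7 kb from the TSS and 1.76 kb beyond the gene's end. In RPMI it had no peak. At the CHIR signal the RPMI library would hold 52.1 reads there, against 15 in its lowest peak. In gene order its neighbours are HNRNPR and TCEA3.

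ZNF423, the SMAD cofactor that also partners with EBF factors, had a peak within the gene 126 kb from the TSS (chr16:49730532-49731000 in CHIR). It had 64 reads and 12 IgG reads in CHIR and 38 and 18 in CHIR+SB, signals of 24.6 and 21.4. Both values were near the top of their lists, above 91.4% and 92.1% of peaks. No RPMI peak overlapped it, and the nearest lay 1054 kb away.

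ZNF48 had the only ZNF peak away from a promoter that was in all 3 lists, centred 0.539 to 0.624 kb beyond the end of the gene. Its read counts were 26 (RPMI), 60 (CHIR) and 31 (CHIR+SB), with 8, 12 and 9 IgG reads. The signals were 16.7, 23.0 and 17.4, highest in CHIR. Against normalized IgG signal the ratios were 3.02, 2.72 and 4.92, lowest in CHIR. The peak (chr16:30411798-30412245 in CHIR) was centred 5.23 to 5.31 kb from the TSS, and its RefSeq neighbours are SEPTIN1 and ZNF771.

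The other CHIR peaks away from promoters were of 4 genes found in that list alone. ZNF521, a relative of ZNF423 known from blood and neural progenitors, had 33 reads (4 with IgG) at 304 kb from its start and 13.8 kb beyond the gene's end. It was the ZNF peak farthest from its TSS. ZNF716 had 28 reads at 41.6 kb, and ZNF664 had 22 reads at 158 kb, both beyond the gene's end. ZNF703, a transcriptional repressor gene of the NET family, had 20 reads and 1 IgG read 20.2 kb upstream, the fewest reads that any CHIR peak had.

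In CHIR+SB alone were 8 further peaks away from promoters, all with 14 to 18 reads. ZNF148 (the gene of ZBP-89), ZNF391 and ZNF451 had 14 reads each, and a signal of 7.88. These peaks lay within the genes, 84.3, 1.43 and 75.2 kb from the TSS. ZNF644, a partner of the histone methyltransferase G9a, had 17 reads 9.03 kb upstream, and ZNF124 16 reads 7.78 kb upstream. ZNF618 and ZNF704 had 17 reads each, within the genes at 52.0 and 15.4 kb from the TSS. ZNF117 had 18 reads 20.6 kb from the TSS and 4.045 kb beyond the gene's end. None of the 8 stood above more than 51.8% of the peaks in the list by reads.

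**Figure D3:**
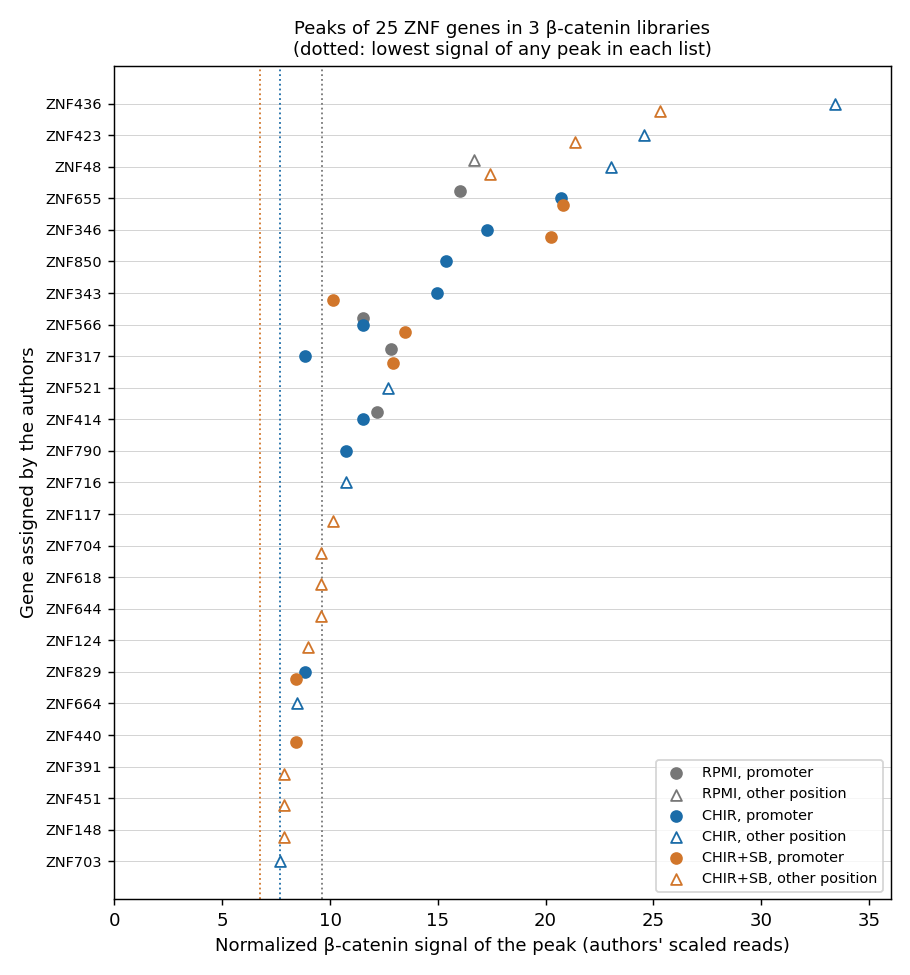
Normalized β-catenin signal (horizontal axis, the authors' scaled read count) of every ZNF peak by gene (vertical axis), with colours for condition, filled circles for promoter peaks and open triangles for other positions. Dotted lines are the lowest signal in each list (9.61 in RPMI, 7.68 in CHIR, 6.75 in CHIR+SB), and ZNF436, ZNF423 and ZNF48 have the highest CHIR values.

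By position, 4 of the 5 ZNF peaks in RPMI lay at promoters (80.0%, exact 95% binomial interval 28.4 to 99.5%), against 55.0% of all RPMI peaks. In CHIR it was 9 of 16 (56.3%, 29.9 to 80.2%), against 26.6% of all peaks. In CHIR+SB it was 7 of 18 (38.9%, 17.3 to 64.3%), against 14.5%. In the order RPMI, CHIR and CHIR+SB, ZNF promoter peaks numbered 4, 9 and 7, and ZNF peaks elsewhere 1, 7 and 11. In each list the ZNF share at promoters was above the share of all peaks, and the difference was not tested.

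Signal at ZNF promoter peaks was not higher than at promoter peaks of other genes. Its medians were 12.5 (RPMI), 11.5 (CHIR) and 12.9 (CHIR+SB), against 15.4, 14.2 and 12.9 over all promoter peaks. At other positions the ZNF median was 12.7 in CHIR and 9.56 in CHIR+SB, against 11.5 and 9.56 over all such peaks. Over all positions it was 12.8, 12.1 and 9.84, against 12.8, 11.9 and 9.56. Reads per ZNF peak had medians of 20, 31.5 and 17.5, with ranges of 18 to 26, 20 to 87 and 14 to 45.

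IgG reads at ZNF peaks had medians of 5 (RPMI), 4.5 (CHIR) and 8 (CHIR+SB), and ranged from 5 to 8, 1 to 12 and 2 to 18. By the authors' factors the IgG library was 1.75 times as deep in CHIR+SB as in RPMI, and 0.976 times in CHIR. Median β-catenin over IgG signal was 3.35, 4.13 and 3.62 at ZNF peaks, against 4.22, 4.53 and 4.29 over all peaks with an IgG read. At promoters the ZNF medians were 3.44, 4.17 and 3.52, against 4.06, 4.08 and 3.74 over all promoter peaks, so the CHIR value was not below that of other promoters. At other positions they were 3.05 against 4.72 in CHIR and 4.29 against 4.29 in CHIR+SB. The highest ratios were at ZNF703 (10.9, exact 95% interval 1.74 to 451) and ZNF391 (10.0, 2.30 to 90.7), which rest on 1 and 2 IgG reads. For ZNF436 the CHIR ratio was 6.76 (3.15 to 17.3) and the CHIR+SB ratio 5.36 (2.79 to 11.1). Every listed peak of any gene has a ratio of at least 2.22, so a value above 1 is a property of the lists.

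**Figure D4:**
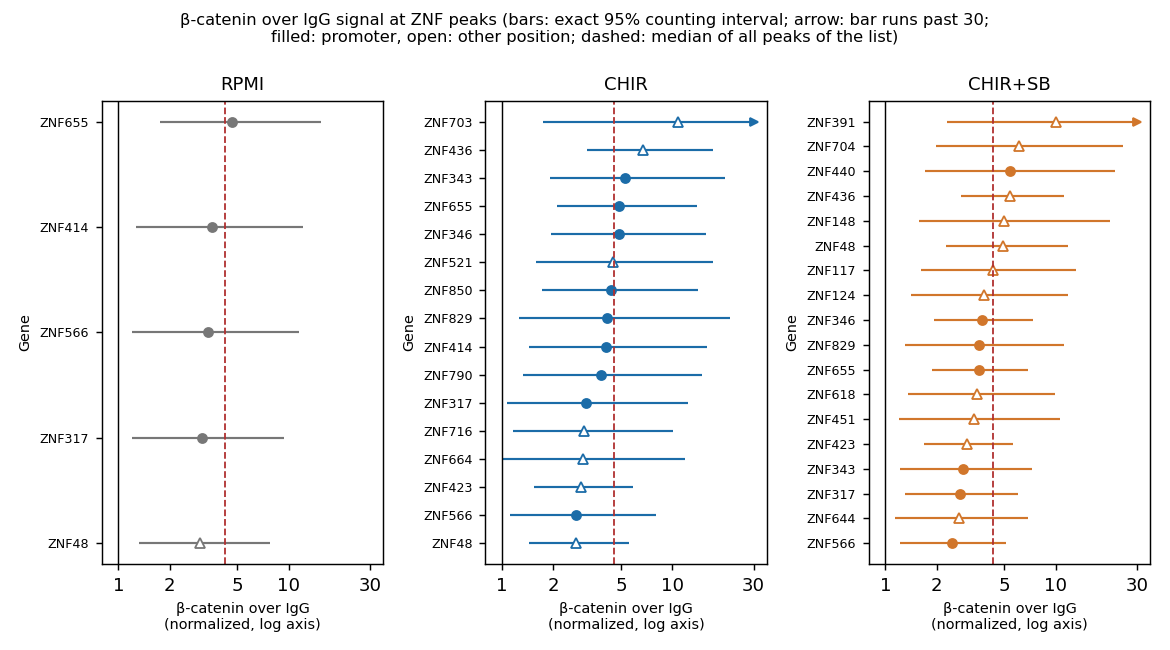
Ratio of normalized β-catenin to IgG signal (horizontal axis, log scale) at each ZNF peak (vertical axis) in RPMI, CHIR and CHIR+SB, with exact 95% counting intervals. Every interval includes the median of all peaks of the list (dashed, 4.22, 4.53 and 4.29), and those of ZNF703 and ZNF391 run past the axis.

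Overlap was taken as at least 1 shared bp. All 5 ZNF peaks of RPMI overlapped a CHIR peak, against 69.6% of all RPMI peaks, and 4 of 5 overlapped a CHIR+SB peak, against 61.5%. Of the 16 CHIR peaks, 5 overlapped an RPMI peak (31.3%, exact interval 11.0 to 58.7%), against 17.0% of all CHIR peaks. Of these 16, 9 overlapped a CHIR+SB peak (56.3%, 29.9 to 80.2%), against 63.3%. In the CHIR+SB list, 9 of 18 shared ground with the CHIR list (50%, 26.0 to 74.0%), against 36.6%, and 4 with the RPMI list, against 8.77%. Since a larger share of ZNF peaks lay at promoters, the shares are also given by position. Of ZNF promoter peaks, 4 of 4 in RPMI overlapped a CHIR peak, against 93.0% of all RPMI promoter peaks. In CHIR 4 of 9 overlapped an RPMI peak (44.4% against 47.5%) and 6 of 9 a CHIR+SB peak (66.7% against 65.0%). In CHIR+SB 6 of 7 promoter peaks overlapped a CHIR peak (85.7% against 68.7%), and 3 of 11 peaks elsewhere did (27.3% against 31.1%). By gene, ZNF48, ZNF317, ZNF566 and ZNF655 were in all 3 lists, and ZNF414 in RPMI and CHIR. ZNF343, ZNF346, ZNF423, ZNF436 and ZNF829 were in CHIR and CHIR+SB, 6 genes in CHIR alone and 9 in CHIR+SB alone.

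Depth limits what the gaps between lists show. The reads expected at equal signal start from the list in which the peak was called, and calling favours high values. They also leave out the ratio to IgG, which is at least 2.22 at every listed peak. They therefore do not show why a peak is missing from another list. Of the 11 CHIR peaks with no RPMI partner, 8 would have at least 15 reads in the RPMI library at equal signal, and 3 (ZNF664, ZNF703 and ZNF829) would fall below the lowest RPMI peak. Of the 14 CHIR+SB peaks with no RPMI partner, 9 would fall below it. The 5 that would not are ZNF117, ZNF343, ZNF346, ZNF423 and ZNF436. The 7 CHIR peaks with no CHIR+SB partner would have 13.7 to 27.3 reads, against 12 in the lowest CHIR+SB peak. The 9 CHIR+SB peaks with no CHIR partner would have 20.5 to 26.4 reads, against 20 in the lowest CHIR peak, so a small loss of reads would take them off the list.

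Signal was compared at ZNF peaks present in both lists of a pair, where the number of pairs is small. At the 5 pairs of RPMI and CHIR, the ratio of CHIR to RPMI signal had a median of 0.999, against 1.23 over 174 pairs of any gene. Peak width differed in the same direction, with a median ratio of 1.16 against 1.36. The signal ratio ran from 0.689 at ZNF317 (exact 95% interval 0.362 to 1.32) to 1.38 at ZNF48 (0.859 to 2.28). None of the 5 passed 1.5-fold in either direction, against 21.3% of all pairs higher and 1.72% lower. The interval excluded 1 at 0 of 5, against 16.7% of all pairs.

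At the 9 pairs of CHIR and CHIR+SB, the ratio of CHIR+SB to CHIR signal had a median of 0.955, against 1.00 over 642 pairs. It was lowest at ZNF343 (0.676, 0.364 to 1.21) and highest at ZNF317 (1.46, 0.785 to 2.73). The signal counts reads over the whole peak, and widths differed between lists. The ZNF343 peak was 497 bp wide in CHIR and 255 bp in CHIR+SB, and its ratio per peak width was 1.32, above 1. For ZNF317 the widths were 239 and 295 bp, and the ratio per width was 1.19. None of the 9 signal ratios passed 1.5-fold, against 11.7% of all pairs higher and 8.88% lower. The interval excluded 1 at 0 of 9, against 10.9% of all pairs. The 3 pairs away from promoters were ZNF436 (0.758, 0.517 to 1.10), ZNF48 (0.757, 0.474 to 1.19) and ZNF423 (0.870, 0.566 to 1.32), all below 1. With normalized IgG signal subtracted, these ratios were 0.723, 0.954 and 0.887. The 6 promoter pairs had a median of 1.09, with 4 above 1, against 0.874 over 172 promoter pairs. Peak width differed in the same direction, with a median ratio of 1.16 at the 6 pairs against 0.909 over the 172. The intervals of ZNF343, ZNF423, ZNF436 and ZNF48 lie below a 1.5-fold higher signal in CHIR+SB, and each includes a signal lower by that much.

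At the 4 pairs of RPMI and CHIR+SB, which share their libraries with the other comparisons, the ratios were 1.01 at ZNF317, 1.05 at ZNF48, 1.17 at ZNF566 and 1.30 at ZNF655. Over 152 pairs of any gene the median was 1.09. None of the 4 passed 1.5-fold, against 17.8% of all pairs higher and 6.58% lower, and the interval excluded 1 at 0 of 4, against 11.2%. With 4 to 9 pairs, counts of 0 are near what these shares give.

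**Figure D5:**
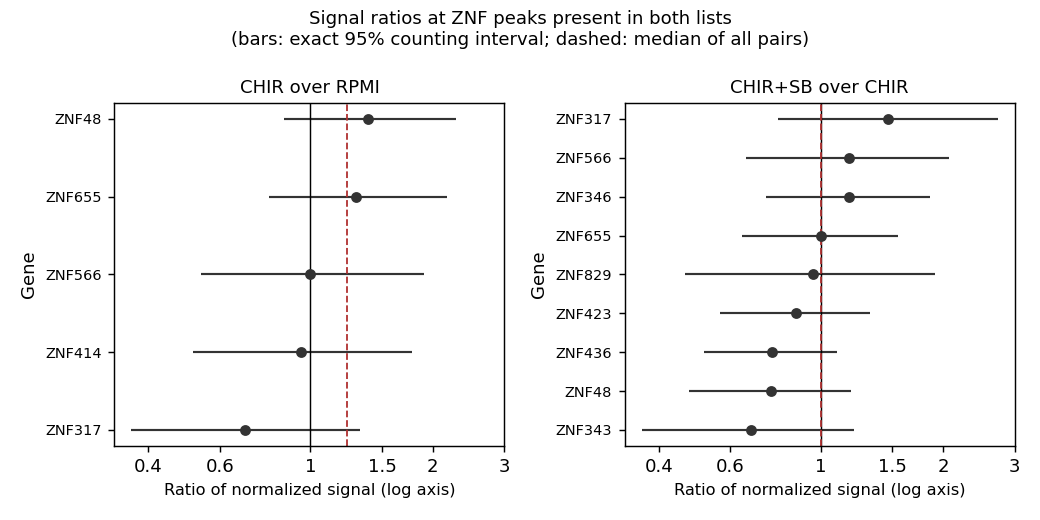
Ratio of normalized signal (horizontal axis, log scale) at ZNF peaks that overlap one-to-one between lists, CHIR over RPMI (5 genes) and CHIR+SB over CHIR (9 genes), with exact 95% counting intervals. Every interval crosses 1 (solid line), and the dashed line is the median over all pairs (1.23 and 1.00).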

How the data were processed

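Per the labels' protocols, the DNA of parallel precipitations was pooled for each library. The submitters' processing notes name Bowtie as a tool, and hg19 and mm9 as builds. Versions, the peak caller and its thresholds were not given in the sources available. Peak lists were deposited by the authors, 1 per β-catenin library, with β-catenin and IgG read counts as whole numbers per peak. Normalized signal, ratio, assigned gene and distance from the peak's centre to its TSS are as deposited, with decimal commas read as points. Peak coordinates follow the lists, which were taken as hg19.

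Members, lists and motifs were chosen with earlier results of these data known, and the 7-letter form after sequences were seen. A gene that fits the name pattern is not reported here. In full are given members in all 3 lists, the 3 highest of each list and the peaks nearest to and farthest from a TSS; the others are given by reads and position. Shares carry exact 95% (Clopper-Pearson) intervals, and ratios exact conditional binomial intervals from both counts. These cover counting error only, and PCR copies are not independent molecules. Ratios used peaks that overlapped one-to-one. Family sizes used RefSeq symbols (GRCh38.p14), and promoter sequences are RefSeq's, with 21 of 25 members matched. A planned count of zinc fingers per protein was not made. Python 3.11.15, pandas 2.3.3 and scipy 1.17.1 were used, and intervals and overlaps were tested on simulated data.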

Additional observations from a re-analysis of the deposited data

How the results depend on the processing

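Of 59 recomputed values, 52 stayed within the interval of the reported value (or within 1.5 times it, for counts) and 7 moved. Some could not move. Taking 1 value per gene changes nothing, because no ZNF gene had a second peak within a list. The highest of the 3 lists' minimum signals is that of RPMI, so every RPMI peak reaches it. For medians of 4 or 5 pairs or peaks the interval is their full range. The count of 52 is therefore no measure of robustness. At or above the median signal of each list were 3 of 5 ZNF peaks in RPMI, 8 of 16 in CHIR and 12 of 18 in CHIR+SB. A cut at a list's own median takes away a large part of any set of its peaks, so these lower counts follow from the cut. At or above the highest of the 3 lists' minimum signals, 9.61, the count in CHIR+SB was 9, and 77.8% of these overlapped a CHIR peak of that signal. With raw reads and 1 added to each, the median ratio to IgG was 6.10 in CHIR and 2.40 in CHIR+SB. These ratios leave out the library factors, unlike the normalized 4.13 and 3.62. By those factors the IgG library was 1.75 times as deep in CHIR+SB as in RPMI, and 0.976 times in CHIR. The raw ratios therefore cannot be compared between conditions. Per peak width, the median ratio of CHIR+SB to RPMI signal was 0.805. The share at promoters stayed within its interval at limits of 500 and 5000 bp, at the common signal minimum and with letters allowed after the digits of the name. No paired analysis was possible because each condition had 1 library and the labels carry no replicate numbers. Absence from a list rests on 1 library and on its lowest signal, and the gene given to a peak is the authors' assignment.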
